A study of Hydra vulgaris with 30 samples.

Results

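UNC0379 was set against its vehicle in regenerating *Hydra* tips collected at 12 hours postamputation (hpa), in 6 libraries picked by the treatment and time in their labels. They were the 3 libraries of UNC0379-treated tips and the 3 libraries of DMSO-treated tips at that time, out of 30 libraries in the series. UNC0379 is a small-molecule inhibitor of SETD8 (KMT5A), the methyltransferase that places a single methyl group on lysine 20 of histone H4. Of the 51290 transcripts in the files, 5046 had enough counts to be tested.

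All polyps belonged to a clonal culture of *Hydra vulgaris*, strain Ind-Pune, kept at 18 °C, and all were decapitated, so that the DMSO tips were regenerating as well. Polyps of the UNC0379 group received 150 µM according to one label field, while another field writes the same figure in mM. Control polyps received 0.2% DMSO. The other 24 libraries came from the same 2 treatments at the remaining times (0, 3, 8 and 24 hpa), with 3 libraries per group. How long before decapitation the inhibitor was given to the sequenced polyps was not found in the sources used here. Whether the replicates were separate cultures is not stated either, so that p-values refer to the spread among libraries, which may be technical.

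A decapitated *Hydra* polyp closes the wound and then rebuilds a head organizer at the cut surface, from which Wnt signalling patterns the new head. Secreted Dickkopf proteins include antagonists of Wnt signalling, and Brachyury is a T-box transcription factor of the *Hydra* head. Monomethylation of lysine 20 on histone H4 is found over transcribed genes in some settings and with compacted chromatin in others, so that its writer has been linked both to active and to silent genes.

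QuantSeq libraries read the 3′ ends of mRNA, so that a count stands for 1 sequenced 3′ tag. Reads assigned to a transcript numbered 496200, 522942 and 778487 under UNC0379 and 483670, 530963 and 681541 in DMSO. One count was worth 1.31 to 2.01 CPM, the unit of normalized level used here (counts scaled to the library total after TMM normalization), under UNC0379 and 1.53 to 2.04 in DMSO. Replicate 3 was the deepest library of each group, and it had the smallest share of reads that did not align, 26.1% under UNC0379 and 33.7% in DMSO, against 49.99% to 57.1% in the other 4 libraries. For each assigned read, 1.07, 1.07 and 1.09 reads were recorded as ambiguous under UNC0379 and 1.16, 1.16 and 1.14 in DMSO. The groups did not overlap in this ratio, and its part in the results below was not tested. Log2 CPM correlated across transcripts at 0.953 to 0.962 among UNC0379 libraries, 0.946 to 0.954 among DMSO libraries and 0.907 to 0.931 between the treatments. The reference gene table held none of the 94298 identifiers of transcripts and gene models. For this reason only loci that the study's panels pair with a name are given a name here, and no cell type marker could be checked.

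At 12 hpa, far more transcripts were lower under UNC0379 than higher. EdgeR's quasi-likelihood test called 315 of the 5046 transcripts at an adjusted p under 0.05, a background of 6.24% of transcripts called, with 67 higher and 248 lower under UNC0379. Lower transcripts thus made up 78.7% of the calls. Of the transcripts called, 54 of the higher and 235 of the lower changed by more than 2-fold, and 18 and 88 by more than 4-fold. Among higher transcripts the median log2 fold change was 1.51 (0.53 to 6.35), and among lower transcripts it was -1.78 (-4.74 to -0.66), while over all transcripts tested it was 0.0020. In bulk tips, fewer cells of a type and less RNA per cell cannot be told apart.

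**Figure D1:**
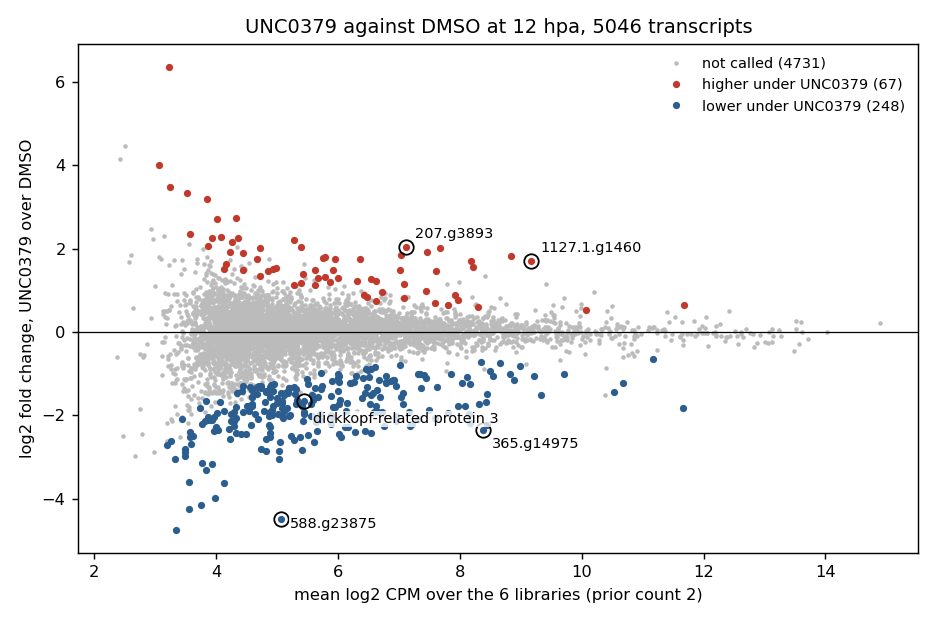
Log2 fold change of UNC0379 over DMSO at 12 hpa against mean log2 CPM over the 6 libraries, 1 dot per transcript tested. Circles mark dickkopf-related protein 3, Sc4wPfr_1127.1.g1460.t1, Sc4wPfr_207.g3893.t1, Sc4wPfr_365.g14975.t1 and Sc4wPfr_588.g23875.t1. The 248 lower transcripts outnumber the 67 higher ones across the range of levels, and dots spread further from 0 at low levels.

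The libraries separated cleanly on most transcripts called. The 3 UNC0379 values were without exception above the 3 DMSO values for 66 of the 67 higher transcripts and below them for 247 of the 248 lower ones. Over all transcripts tested, groups without overlap were found for 10.9% with UNC0379 above and for 15.1% with UNC0379 below. Transcripts called higher held 1.579%, 1.502% and 1.494% of the assigned reads under UNC0379, against 0.739%, 0.696% and 0.685% in DMSO. Those called lower held 1.71%, 1.77% and 1.75% under UNC0379 and 4.88%, 4.62% and 4.58% in DMSO. Both the separation of the transcripts called and these shares describe transcripts that the same libraries selected, so neither adds to the calls.

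How much could be called depended on the level of a transcript. When the transcripts were divided into 4 equal groups by their mean level over all 30 libraries, 3.80% of the lowest group (6.06 to 18.1 CPM) and 4.92% of the next were called, against 8.17% and 8.08% of the upper groups. The smallest change called was 1.32 on the log2 scale in the lowest group and 0.53 in the highest, where the median standard error was 0.56 and 0.25. Lower transcripts outnumbered higher ones in each of the 4 groups, with 35, 50, 83 and 80 lower and 13, 12, 20 and 22 higher from the lowest level to the highest. Among the 100 most counted transcripts, which took 48.8% to 51.1% of the assigned reads of a library, 1 was higher and 4 were lower. The 95% interval of the fold change lay within 2-fold in both directions for 82 of these 100 transcripts, but for 36.7% of all transcripts tested and 2.14% of the lowest group.

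Dickkopf-related protein 3 was lower under UNC0379. Its transcript (Sc4wPfr_504.g10351.t1) had 12.0, 35.9 and 20.9 CPM under UNC0379, from 6, 19 and 16 counts, against 89.9, 77.2 and 53.7 CPM in DMSO, from 44, 39 and 35 counts. The highest UNC0379 library lay below the lowest DMSO library, and the means were 22.9 ± 12.1 and 73.6 ± 18.4 CPM (SD, n = 3 each). The log2 fold change was -1.66 (standard error 0.38, 95% interval -2.43 to -0.89, adjusted p = 0.0031 from edgeR). Within UNC0379 the level at 12 hpa differed from that at 0 hpa by -1.27 (adjusted p = 0.0537), and within DMSO by -0.27 (adjusted p = 0.757), on the log2 scale. Neither passed the test at 12 hpa, but the fall since 0 hpa under UNC0379 was called at 3, 8 and 24 hpa (-1.998, -1.96 and -1.37, adjusted p = 0.00303, 0.00246 and 0.0344). The contrasts at 12 hpa share libraries with the comparison of treatments. The difference of the 12 hpa effect from the effect at 3 hpa was 1.03, with an interval from -0.16 to 2.22 (adjusted p = 0.999) and was not called.

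Brachyury protein-like, a locus named after the head transcription factor, was not called. It (Sc4wPfr_489.2.g16698.t1) had 36.1, 32.1 and 30.04 CPM under UNC0379 and 20.4, 41.6 and 18.4 CPM in DMSO. The UNC0379 libraries lay between the DMSO libraries, and the log2 fold change was 0.30 with a 95% interval from -0.55 to 1.15 (adjusted p = 0.886 from edgeR). This transcript had risen since decapitation in both treatments, by 1.70 under UNC0379 (adjusted p = 0.0324) and by 3.57 in DMSO (adjusted p = 0.00024) on the log2 scale between 0 and 12 hpa. The levels at 0 hpa were 5.01 to 14.4 CPM under UNC0379 and 1.36 to 2.50 CPM in DMSO. The effect of UNC0379 at 12 hpa minus that at 0 hpa was -1.86 (interval -3.59 to -0.13) and did not pass the test over all transcripts (adjusted p = 0.366).

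NHL repeat-containing protein 2 (Sc4wPfr_433.g11169.t1) had 36.1, 35.9 and 28.7 CPM under UNC0379 and 24.5, 25.7 and 24.5 CPM in DMSO. The groups did not overlap, with UNC0379 above, yet the log2 fold change of 0.41 (interval -0.56 to 1.39) did not pass the test (adjusted p = 0.845 from edgeR). Villin-1 (Sc4wPfr_162.1.g23859.t1), named after an actin-bundling protein of microvilli, had too few reads to be tested, with 2, 4 and 1 counts under UNC0379 and 4, 12 and 12 in DMSO. Its pooled level under UNC0379 was 0.229 times that in DMSO, with an exact 95% interval from 0.0846 to 0.538 that covers counting error only. An exact two-sided permutation test over the 6 libraries gave p = 0.1, the smallest value that 3 libraries against 3 allow.

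The other loci of the study's panels had few or no counts. Of 17 named gene models, 11 had no count in any of the 6 libraries. A total of 0 leaves room for a level of up to 0.872 CPM (3 counts over the 6 libraries) and sets no limit on reads recorded as ambiguous. Among the 11 were N-lysine methyltransferase KMT5A-A, which carries the name of the inhibited enzyme, histone-lysine N-methyltransferase SETDB1, a writer of another histone mark, and the notch 1-like locus. These loci had no count in any of the 30 libraries, and each has 2 annotated transcripts. The receptor locus frizzled5/8 and the ubiquitin ligase rnf213-alpha had 1 count in each treatment. Loci with a single annotated transcript had counts in 5 of 8 cases and those with several in 1 of 9. Whether reads of loci with several transcripts were among the ambiguous ones was not tested.

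Of the transcripts without a name, the pair with the smallest p-values and the pair with the largest changes at 50 CPM or more are given by their identifiers. Sc4wPfr_1127.1.g1460.t1 had the smallest p-value of the higher transcripts, with 1047, 1050 and 1016 CPM under UNC0379 and 337, 297 and 319 CPM in DMSO. The lowest UNC0379 library lay far above the highest DMSO library. The log2 fold change was 1.71 ± 0.18 (standard error from the fit to all 30 libraries, n = 3 each) with an adjusted p = 1.64e-08 in edgeR. It was already higher under UNC0379 at 0 hpa (log2 fold change 0.71, adjusted p = 0.0116 from edgeR). Within UNC0379 it had risen by 1.02 on the log2 scale since 0 hpa (adjusted p = 0.00013), while in DMSO the difference between 12 and 0 hpa was 0.017 (interval -0.34 to 0.37).

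The gene model numbered next on the same scaffold showed the same direction at a far lower level. It had 11, 10 and 13 counts under UNC0379 and none in the 3 DMSO libraries. Against the limit of 3 counts over the DMSO group, its level was at least 10.4-fold higher under UNC0379, and the test called it (adjusted p = 0.00013 from edgeR). It was the transcript with the largest fitted change of all those called, and the only one with no count in a whole group. A transcript can pass the filter on low counts through the group in which it is high. At the other times it had 17 counts over the 12 other DMSO libraries.

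Sc4wPfr_207.g3893.t1 had the largest rise at 50 CPM or more among transcripts not yet named. Its level was 253, 323 and 243 CPM under UNC0379 and 69.5, 75.2 and 55.2 CPM in DMSO, a log2 fold change of 2.04 ± 0.35 (standard error, n = 3 each) with an adjusted p = 9.1e-05 in edgeR. The transcript also rose after decapitation, by 4.87 under UNC0379 (adjusted p = 7.25e-09) and by 1.91 in DMSO (adjusted p = 0.00475) between 0 and 12 hpa on the log2 scale. The medians at 24 hpa were 105 CPM under UNC0379 and 13.9 CPM in DMSO.

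Sc4wPfr_365.g14975.t1 had the smallest p-value of all transcripts. It had 130, 155 and 149 CPM under UNC0379 and 787, 748 and 685 CPM in DMSO, a log2 fold change of -2.35 ± 0.18 (standard error, n = 3 each) with an adjusted p = 2.93e-11 in edgeR. It was already lower under UNC0379 at 0 hpa (log2 fold change -1.50, adjusted p = 1.62e-07 from edgeR). Its level also fell between 0 and 12 hpa in both treatments, by 1.62 under UNC0379 and by 0.77 in DMSO on the log2 scale (adjusted p = 1.34e-07 and 0.00286).

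Sc4wPfr_588.g23875.t1 showed the largest fall at 50 CPM or more. It had 4.01, 0 and 11.8 CPM under UNC0379, from 2, 0 and 9 counts, against 135, 146 and 140 CPM in DMSO, from 66, 74 and 91 counts. The log2 fold change was -4.50 ± 0.49 (standard error, n = 3 each) with an adjusted p = 4.85e-08 in edgeR. UNC0379 replicate 3 held 9 of the 11 counts, and without it the log2 fold change was -5.98 (adjusted p = 2.16e-07). Both treatments were almost without counts of this transcript at 0 hpa, with 6 counts under UNC0379 and 3 in DMSO over 3 libraries each. Under UNC0379 it differed from 0 hpa by -0.42 at 8 hpa and by 0.69 at 12 hpa on the log2 scale (adjusted p = 0.921 and 0.803), while in DMSO it had risen by 6.26 at 8 hpa and by 6.31 at 12 hpa (adjusted p = 2.63e-09 and 1.72e-09). At 24 hpa the rise since 0 hpa was called under UNC0379 as well (4.56, adjusted p = 1.31e-06), and the libraries held 66.6 to 171 CPM under UNC0379 and 159 to 221 CPM in DMSO. In UNC0379 24 hpa replicate 3, a library of low depth, 1 count was worth 7.77 CPM.

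**Figure D2:**
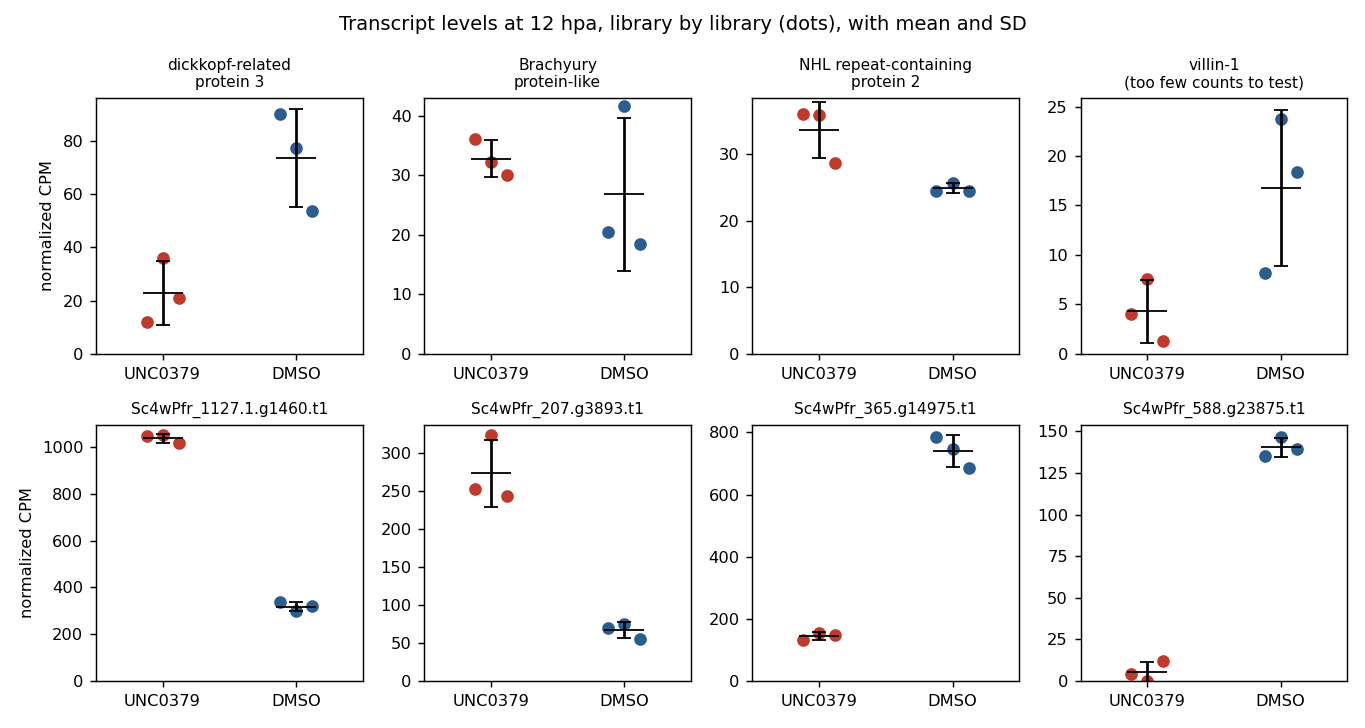
Normalized CPM in each of the 3 UNC0379 and 3 DMSO libraries at 12 hpa (dots), with the mean (long bar) and SD (error bar), each panel on its own scale from 0. The groups overlap for Brachyury protein-like alone among these 8 panels, and for Sc4wPfr_588.g23875.t1 the UNC0379 libraries lie at 0 to 11.8 CPM, below DMSO libraries at 135 to 146 CPM.

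Of the transcripts that rise after decapitation, a larger share than of all transcripts was called at 12 hpa in either direction. More of them were lower than higher under UNC0379, as was the case over all transcripts tested. To avoid sharing libraries with the 12 hpa comparison, lists were taken from DMSO tips at 3, 8 or 24 hpa against 0 hpa. By 8 hpa in DMSO, 117 transcripts had risen (2.32% of those tested), and at 12 hpa 33 of them were lower and 8 higher under UNC0379, that is 28.2% and 6.84%, against 4.91% lower and 1.33% higher over all transcripts tested. Their median log2 fold change was -0.50 (quartiles -1.17 and 0.25). Of the 100 transcripts that had fallen by 8 hpa (1.98% of those tested), 6 were lower and 7 higher, and their median was 0.15.

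The earliest list showed less of this. Of 48 transcripts that had risen in DMSO by 3 hpa (0.951% of those tested), 7 were lower and 4 higher under UNC0379 at 12 hpa, that is 14.6% and 8.33%, with a median of -0.12, and of 76 that had fallen (1.51%), 1 was lower and 5 were higher, with a median of 0.29. Of 187 transcripts that had risen in DMSO by 24 hpa (3.71% of those tested), 34 were lower under UNC0379 at 12 hpa (18.2%) and 10 higher (5.35%). Their median was -0.20. Of 270 that had fallen by 24 hpa (5.35% of those tested), 19 were lower (7.04%) and 11 higher (4.07%), with a median of 0.090. Over all transcripts tested, 4.91% were lower and 1.33% higher at 12 hpa. In the lists of transcripts that had fallen, lower calls outnumbered higher ones at 24 hpa but not at 3 or 8 hpa. Most members of each list were not called at 12 hpa, among them 37 of the 48, 76 of the 117 and 143 of the 187 that rose. The 3 lists share the DMSO libraries of 0 hpa and are not independent of each other.

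**Figure D3:**
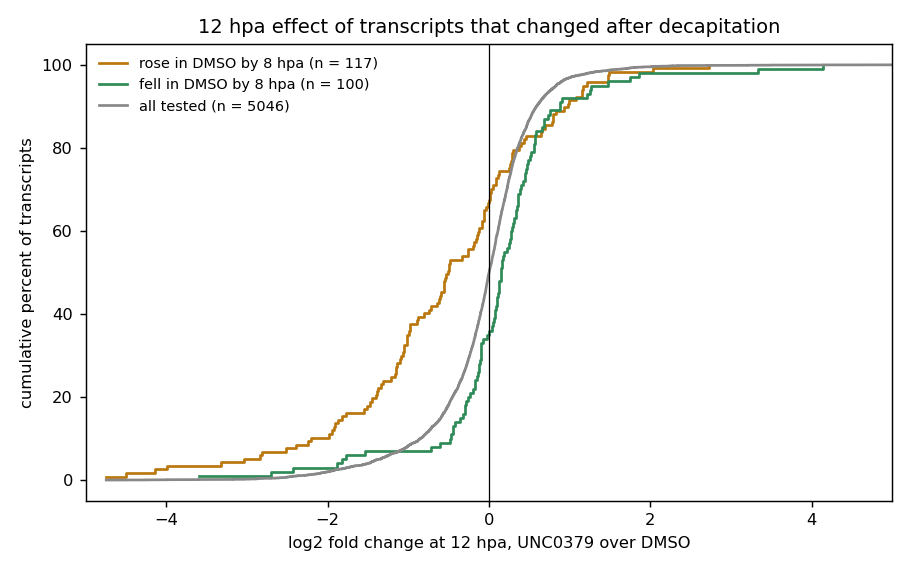
Cumulative percent of transcripts against the log2 fold change of UNC0379 over DMSO at 12 hpa, for transcripts that rose (117) or fell (100) in DMSO between 0 and 8 hpa and for all 5046 tested. The curve of transcripts that rose lies to the left of the others over most of its length, with a median of -0.50, and the curve of those that fell lies to the right of all transcripts around its median of 0.15.

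Treatment effects called at other times mostly had the same sign at 12 hpa, and most transcripts lower at 3, 8 or 24 hpa were called again, while most of those higher were not. No library is shared between times, but the tests share 1 estimate of the spread of each transcript, from the fit to all 30 libraries. Over all transcripts tested, 4.91% were called lower and 1.33% higher at 12 hpa, and 2515 of 5046 had a negative fold change. Of 324 transcripts called lower at 8 hpa (6.42% of those tested), 319 had a negative fold change at 12 hpa and 192 were called lower there, with a median of -1.45, and of 114 called higher (2.26%), 107 were positive and 42 called, with a median of 0.91. At 3 hpa, 175 of the 276 lower transcripts (5.47%) and 36 of the 81 higher ones (1.61%) were called in the same direction at 12 hpa, and at 24 hpa 172 of 268 (5.31%) and 22 of 105 (2.08%). None of the transcripts called at 3 or 8 hpa was called in the opposite direction at 12 hpa, and 1 of those called at 24 hpa was. At 24 hpa, UNC0379 replicate 3 had only 146798 assigned reads. In DMSO replicate 3 of that time, 98.2% of reads did not align, though 625103 were assigned. The part of these 2 libraries in the 24 hpa lists was not tested.

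Fewer of the effects at 0 hpa were called again at 12 hpa. Of 150 transcripts lower at 0 hpa (2.97%), 58 were called lower and 4 higher at 12 hpa, and of 59 higher ones (1.17%), 8 were called higher and 3 lower. The calls in the same direction were 38.7% and 13.6% of these lists, against 4.91% lower and 1.33% higher over all transcripts tested. The medians at 12 hpa were -0.46 and 0.37. Across the 5046 transcripts, the 12 hpa fold change correlated at 0.685 with that at 8 hpa, 0.632 with 3 hpa, 0.547 with 24 hpa and 0.241 with 0 hpa, as a description over transcripts, which are not independent replicates. Of the transcripts called at 12 hpa, 48 of the 248 lower and 3 of the 67 higher ones were called in the same direction at all 5 times, and 25 and 18 were called at no other time.

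**Figure D4:**
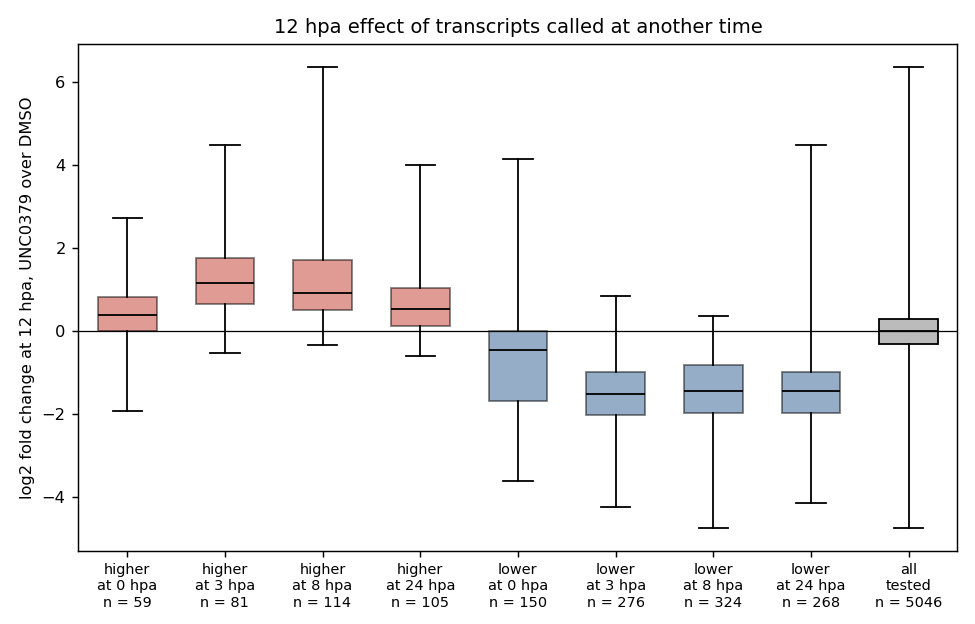
Log2 fold change of UNC0379 over DMSO at 12 hpa for transcripts called higher or lower at each other time and for all transcripts tested. Boxes span the quartiles with the median as a line, and whiskers reach the lowest and highest values. Medians are -1.45 for transcripts lower at 8 hpa and 0.91 for those higher at 8 hpa, and nearest to 0 for the lists of 0 hpa.

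A call at 12 hpa and at no other time did not make an effect particular to 12 hpa, since the test of that difference made almost no calls. The effect at 12 hpa minus the mean effect at the other 4 times was called for 1 of the 5046 transcripts by edgeR (0.0198%), with 174 at an unadjusted p under 0.05, and none of the 43 transcripts called at 12 hpa alone was among them. The difference from the effect at 3 hpa was called for 2 transcripts (0.0396%), from that at 8 hpa for 1 (0.0198%) and from that at 24 hpa for 4 (0.0793%), against 77 for the difference from 0 hpa (1.53%). In simulated counts, the test of the effect at 12 hpa minus the mean of the other times recovered 77 of 99 transcripts changed 4-fold at 12 hpa alone and 20 of 96 changed 2-fold, and the test at 12 hpa recovered 85 of 99 and 26 of 96. In this simulation most 2-fold differences from the mean of the other times were thus missed. The tests of differences from single times were not simulated.

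The transcript called against the mean of the other times was Sc4wPfr_132.g22695.t1, named here after its values were seen. It had 58.1, 69.9 and 84.9 CPM under UNC0379 at 12 hpa and 258, 283 and 276 CPM in DMSO, a log2 fold change of -1.92 ± 0.23 (standard error, n = 3 each) with an adjusted p = 3.54e-07 in edgeR. At 0 hpa it was higher under UNC0379 (1.07, adjusted p = 0.0129), at 3 hpa it was not called (0.12), and at 8 and 24 hpa it was lower (-1.87 and -0.99, adjusted p = 7.11e-07 and 0.00444). Between 0 and 12 hpa its level differed by -0.11 under UNC0379 (interval -0.61 to 0.40) and had risen by 2.89 in DMSO (adjusted p = 2.13e-10). The 12 hpa effect minus the mean of the others was -1.50 (standard error 0.26, adjusted p = 0.0095), a call that was lost without any 1 of 4 libraries of 12 hpa: UNC0379 replicate 1 (-1.39, adjusted p = 0.257), UNC0379 replicate 2 (-1.49, adjusted p = 0.11), DMSO replicate 2 (-1.45, adjusted p = 0.0894) and DMSO replicate 3 (-1.47, adjusted p = 0.0767).

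The transcript whose effect differed between 12 and 8 hpa, Sc4wPfr_118.g25078.t1, also named after its values were seen, was not called at 12 hpa. It had 271, 297 and 260 CPM under UNC0379 and 249, 243 and 250 CPM in DMSO, without overlap and with UNC0379 above, and the log2 fold change was 0.15 with an interval from -0.25 to 0.56 (adjusted p = 0.87 from edgeR). At 8 hpa it had 87.5 to 121 CPM under UNC0379 and 256 to 291 CPM in DMSO, a log2 fold change of -1.37 (adjusted p = 1.08e-05). The difference of 1.53 between the effects (adjusted p = 0.034) was not called when any library of 12 hpa was left out.

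**Figure D5:**
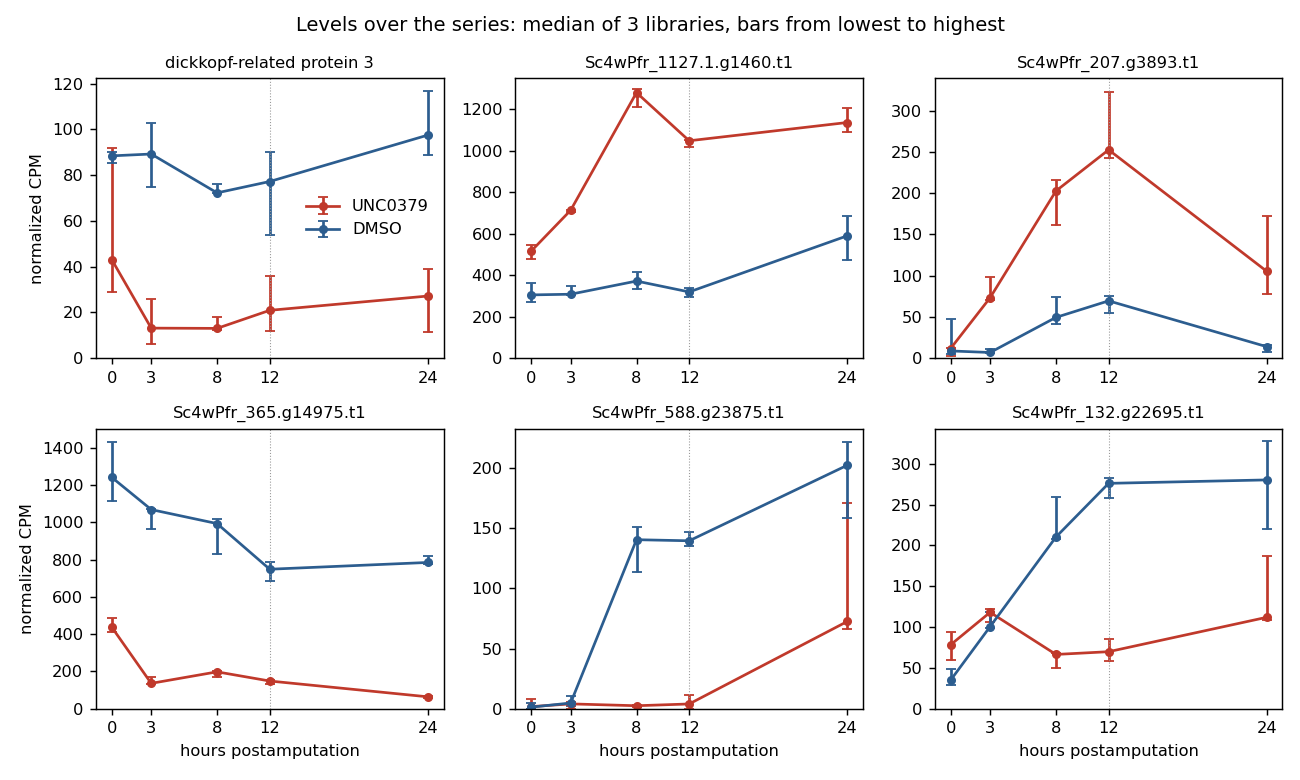
Normalized CPM from 0 to 24 hpa at the 5 sampled times under UNC0379 and in DMSO, as the median of 3 libraries with bars from the lowest to the highest, each panel on its own scale from 0, and a dotted line at 12 hpa. At 12 hpa, Sc4wPfr_588.g23875.t1 is at 0 to 11.8 CPM under UNC0379 and at 135 to 146 CPM in DMSO, and Sc4wPfr_132.g22695.t1 at 58.1 to 84.9 CPM under UNC0379 and at 258 to 283 CPM in DMSO.

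Transcripts called at 12 hpa came from both classes of gene model and from many scaffolds, with some calls close together. Sc4wPfr models supplied 52 higher and 199 lower transcripts of 3674 tested, 6.83% in all, and assembled MSTRG transcripts 15 and 49 of 1372, 4.67% in all. The calls fell on 184 of 882 scaffolds, with at most 4 called models on a scaffold, and 14 scaffolds held 3 or more. On a scaffold with 4 called models, 8 had been tested, and all 4 calls were higher. Of 50 scaffolds with 2 or more called models, 36 had calls in 1 direction only. For models called lower, tested neighbours with the next or the previous number were also lower in 8 of 59 cases, 13.6%, against 5.42% of all models. For models called higher it was 4 of 27, 14.8%, against 1.42%. These cases stem from 4 adjacent pairs that were both lower and 2 that were both higher, each pair counted from both sides. Of the 715 adjacent pairs tested, 1 was called in opposite directions. The files do not give strand, so reads that run on into or overlap a neighbour were not tested apart. Of 27 models with more than 1 tested transcript, 5 had a call and in 4 of these all transcripts had the same sign. Over all 27 such models this was so for 15, and 5 models are too few to compare with that share.

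The counts of calls depended on which libraries entered the fit. With the 6 libraries of 12 hpa alone, 576 transcripts were called, 215 higher and 361 lower, and without 3 libraries of other times that stand apart from their groups (UNC0379 0 hpa replicate 3, UNC0379 24 hpa replicate 3 and DMSO 24 hpa replicate 3), 483 were called, 137 higher and 346 lower. Lower transcripts outnumbered higher ones under each of these settings. The higher count was 39, 44, 38 and 39 without UNC0379 replicate 1, DMSO replicate 1, DMSO replicate 2 or DMSO replicate 3 of 12 hpa.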

How the data were processed

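Raw read counts per transcript were deposited by the authors as 1 file for each library. Trimmomatic, HISAT2 and HTSeq are named in the submitters' processing notes, without versions. Genome build, annotation and the handling of strand were not given in the sources used here. Rows that name no transcript entered neither library sizes nor tests. They held 72.4% to 84.5% of the reads of the 12 hpa libraries, mostly reads not aligned or ambiguous. As no molecular identifiers are mentioned, limits from 3 counts and the interval of villin-1 reflect counting error alone, while intervals of fold changes come from the fit across libraries.

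Tests used edgeR 4.0.16 in R 4.3.3 (filterByExpr on 10 groups, TMM, robust quasi-likelihood fit with 1 coefficient per group to all 30 libraries, common biological coefficient of variation 22.6%). Benjamini-Hochberg adjustment ran over the 5046 transcripts tested, which held 97.2% of the assigned reads of the 12 hpa libraries, at a threshold of 0.05. Differences between times were contrasts of the same fit. The test was tested on simulated data, with 5 false calls at 12 hpa among 4737 transcripts. At 12 hpa, counts of replicate pairs had a chi-square per degree of freedom of 1.67 to 2.23, more than sampling noise gives.

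Named transcripts were the loci that the study's panels pair with a product name and, in each direction, the called transcript with the smallest p-value and that with the largest fold change at a mean of 50 CPM or more without overlap. The identifier of SETDB1 was read in part and fitted 1 gene model; that of lysine-specific demethylase 8 fitted 4 and was left out, as was an identifier shared by 2 names. The comparison and lists were chosen with earlier results of these data known. Alternatives were DESeq2 1.42.0, limma-voom (limma 3.58.1), upper-quartile factors, other filters and limits, a replicate block, only the 6 libraries, summed gene models, thinning and libraries left out. Figures were drawn with matplotlib 3.10.9.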

Additional observations from a re-analysis of the deposited data

Results flagged for a closer look

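Differences between the effect of UNC0379 at 12 hpa and at other times passed edgeR's test of that difference for 6 of the transcripts named above. No library was shared between the times, but the spread was estimated over all 30 libraries. For Sc4wPfr_588.g23875.t1 the effect at 12 hpa minus that at 0 hpa was -5.63 on the log2 scale (adjusted p = 0.0164), and minus that at 24 hpa it was -3.40 (adjusted p = 0.0156). For Sc4wPfr_132.g22695.t1 the difference was -2.99 from 0 hpa (adjusted p = 6.89e-07), -2.04 from 3 hpa (adjusted p = 0.0029) and -1.50 from the mean of the other times (adjusted p = 0.0095). For Sc4wPfr_207.g3893.t1 it was 2.96 from 0 hpa (adjusted p = 0.0152), and for Sc4wPfr_1127.1.g1460.t1 it was 1.00 from 0 hpa (adjusted p = 0.0246). For Sc4wPfr_365.g14975.t1 it was 1.29 from 24 hpa (adjusted p = 0.0359), where the fall at 24 hpa was the larger one (-3.64). For Sc4wPfr_118.g25078.t1 it was 1.53 from 8 hpa (adjusted p = 0.034). Over the 6 fits that each leave out a library of 12 hpa, the differences of Sc4wPfr_118.g25078.t1 from 8 hpa and of Sc4wPfr_365.g14975.t1 from 24 hpa were called in none, with adjusted p up to 0.173 and 0.151. The difference of Sc4wPfr_1127.1.g1460.t1 from 0 hpa was not called in 5 of them (adjusted p up to 0.0767), and that of Sc4wPfr_588.g23875.t1 from 24 hpa was not called without UNC0379 12 hpa replicate 1 (-3.22, adjusted p = 0.0794) or replicate 2 (-2.91, adjusted p = 0.0704). Without UNC0379 12 hpa replicate 3, its differences were -7.09 from 0 hpa and -4.88 from 24 hpa (adjusted p = 0.00419 and 0.00307). With the 3 libraries of other times left out together, the difference of Sc4wPfr_588.g23875.t1 from 0 hpa was -3.93 (adjusted p = 0.376). Each of the 6 transcripts was also chosen on these libraries.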

How the results depend on the processing

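At 12 hpa, 315 transcripts were called (67 higher, 248 lower), 336 with the replicate block (75 and 261). Same-numbered libraries deviated from their group means with correlations of 0.081, 0.016 and 0.020, and differently numbered ones with at most 0.044. These deviations also hold counting noise, so the values cannot decide whether the numbers pair the samples. With the replicate block, differences between effects were called for 6 transcripts against 3 hpa and 3 against 8 hpa. With the 6 libraries alone 576 were called (215 higher), 367 of them in the upper level groups, where the fit to all libraries called 205, and with the replicate block as well 595 (228 higher), 390 of them in the upper level groups. With the 3 libraries of other times left out together, 483 were called (137 higher), 325 in the upper level groups. With an unadjusted p under 0.01 and a log2 fold change beyond 0.58, 104 were higher. Leaving out 1 library of 12 hpa gave 219 to 254 calls, 38 to 46 higher, 173 to 209 lower and 161 to 176 in the upper level groups. Lower calls outnumbered higher ones under every alternative run.

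Counts of differences between times were small and moved with most settings. Against the mean of the other times (1 call), DESeq2 called 3, no filter 0 (583 at an unadjusted p under 0.05), the p and fold limits 40, and leaving out the 3 libraries 10. Against 0 hpa (77), no filter gave 48, the limits 248 and the 3 libraries left out 285. Against 3 hpa (2), DESeq2 gave 5, the stricter filter 4, the limits 51, thinning 4 and the 3 libraries left out 13. Against 8 hpa (1), DESeq2 gave 20, upper-quartile factors 2, no filter 0 (671 at an unadjusted p under 0.05), the stricter filter 2, the limits 50 and the 3 libraries left out 30. Against 24 hpa (4), DESeq2 gave 10, no filter 8, the limits 73 and the 3 libraries left out 14. With 1 of the 30 libraries left out, the counts ranged from 0 to 2 against the mean, 41 to 173 against 0 hpa, 1 to 6 against 3 hpa, 0 to 22 against 8 hpa and 1 to 12 against 24 hpa. The highest came without UNC0379 24 hpa replicate 2 for 24 hpa and without UNC0379 24 hpa replicate 3 for 0, 3 and 8 hpa.

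Transcripts lower at both 8 and 12 hpa (192) numbered 150 to 226 with 1 library left out. Of those that rose in DMSO by 8 hpa, 33 were lower at 12 hpa, against 24 to 47 with 1 library left out, 20 of 81 under the stricter filter, 50 of 163 under the limits and 60 of 265 without the 3 libraries. The causes of these shifts were not tested. Of 317 values of named transcripts under alternatives, 284 kept direction and side of the threshold, 33 lost a call, each on a difference between times, and none changed direction. Depth limits changes under 2-fold and loci with few counts.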
